A study of Homo sapiens with 2 samples.

Results

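The SLC25 family comprises the carrier proteins that move metabolites across the inner mitochondrial membrane. Its transcripts were examined as possible ligands of RBMS3, a single-stranded RNA-binding protein that contacts AU-rich sequence. Members were the protein-coding genes of GENCODE release 44 whose symbol is SLC25A followed by a number, together with UCP2, MTCH1 and MTCH2. This rule gave 51 genes of 20028 protein-coding genes. It used no measured value, but the members were chosen with earlier results of these data known. Of the 27706 RBMS3-binding sites in the list, 79 (0.285%) lay within a member gene on its own strand.

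The sites came from cross-linking and immunoprecipitation sequencing (CLIP-seq) of the human cell line MDA-MB-231, a model of triple-negative breast cancer, in which RBMS3 with an N-terminal FLAG tag was expressed from a lentivirus in addition to the endogenous protein. The only group had 2 biological replicates, both irradiated at 254 nm with 400 mJ/cm2 and both of the same tagged genotype, and for replicate 2 the source and cell line labels give MDA-MB-232, whereas its title gives MDA-MB-231. The tags of both replicates were pooled before the sites were called. No value therefore has an error between replicates, 1 replicate alone can account for a site, and control libraries were not analysed here.

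A site marks a base that was deleted in some of the sequenced RNA fragments, called tags, because reverse transcriptase can skip a base that carries a remnant of the crosslinked protein. A site therefore has a number of covering tags, a number of deletion tags and a deletion percentage, which is the latter over the former. Tags follow both binding and the abundance of a transcript, and transcript levels were not analysed here. For a member without a site, lack of binding and lack of the transcript therefore cannot be told apart.

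SLC25 proteins share a fold of repeated pairs of membrane helices and switch between states that open to either side of the inner membrane. The ADP/ATP carriers and the phosphate carrier supply the ATP synthase with its substrates, and other members carry nucleotides, coenzymes, amino acids, carboxylates, iron and glutathione. MTCH1, MTCH2 and SLC25A46 are members that reside in the outer membrane. The 3′ untranslated region (3′UTR), in which RBMS3 sites mostly lie, ends at a poly(A) site that is commonly preceded by the hexamer AATAAA or ATTAAA, the poly(A) signals, written here as DNA.

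The sequences of member sites with many deletion tags fell into windows that held a poly(A) signal and windows that held none. The first set gives examples, not every such site, in which the strongest printed deletion lay within 11 nt of the start of the signal. The top sites of SLC25A32 (143 deletion tags) and SLC25A37 (118) also had a signal in the window but are not printed. Sequences are hg38, 5′ to 3′ on the transcript strand, and capitals mark the signal, not the deletion.
SLC25A3, chr12:98601676-98601705, plus strand: atttactgttgaAATAAAcccaactcttca
MTCH1, chr6:36968146-36968175, minus strand: tcatctcccgcaAATAAAtgtattggtgat
SLC25A5, chrX:119471287-119471316, plus strand: caaatttggagaAATAAAaatatctaaaat
SLC25A4, chr4:185147243-185147272, plus strand: tgaaacatcAATAAAgaccacttaatgcac
SLC25A30, chr13:45393331-45393360, minus strand: tgtttcatttatttAATAAActggagtaat
SLC25A13, chr7:96120220-96120249, minus strand: gaaggtggaAATAAActatttgtaaagtga
SLC25A22, chr11:790476-790505, minus strand: tgtcagagaataAATAAAtattctaagtag
SLC25A46, chr5:110763045-110763074, plus strand: tactaatcagtttAATAAAaacattttgtc
SLC25A43, chrX:119454442-119454471, plus strand: tattttttccgATTAAAtttattttccaaa
SLC25A44, chr1:156212761-156212790, plus strand: ctgaaatgtaATTAAAagtttttattgagc

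The second set holds the top sites of SLC25A24, MTCH2, SLC25A5 and SLC25A6 and the distal site of MTCH2, since none of them had either signal within 25 nt. The capital marks the listed deletion, which within a run of equal bases stands for the whole run, because every such deletion was listed at the lowest coordinate of its run.
SLC25A24, chr1:108134818-108134847, minus strand: caaaaatatatattTgtttctaaaattact
MTCH2, proximal site, chr11:47618712-47618741, minus strand: ttttaataatcattTaatcttgggaaaatt
MTCH2, distal site, chr11:47617326-47617355, minus strand: tcccaaaaaatcttTaagtaaagatgatct
SLC25A5, chrX:119471243-119471272, plus strand: gggactcaattgtaTtttttatttcagtca
SLC25A6, chrX:1386270-1386299, minus strand: gtgttctaagtattTatttaaaacaaaaga

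RBMS3 sites were present in 24 of the 51 members (47.1%), compared with 37.7% of all protein-coding genes. A site in a 3′UTR was present in 22 members (43.1%), compared with 31.8% of all protein-coding genes. With a single pooled list these shares were not tested, and they are given as a description. The members with sites included SLC25A3, SLC25A4, SLC25A5, SLC25A6, SLC25A11, SLC25A13, SLC25A16, SLC25A22, SLC25A24, SLC25A30, SLC25A32, SLC25A33, SLC25A36, SLC25A37, SLC25A40, SLC25A42, SLC25A43, SLC25A44, SLC25A46, SLC25A51, SLC25A53, MTCH1 and MTCH2. SLC25A51 and SLC25A53 had an intronic site only. None of the 49 pseudogenes named after SLC25A or MTCH genes held a site on its strand.

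The 27 members without a site were SLC25A1, SLC25A2, SLC25A10, SLC25A12, SLC25A14, SLC25A15, SLC25A17, SLC25A18, SLC25A20, SLC25A21, SLC25A23, SLC25A25, SLC25A26, SLC25A27, SLC25A28, SLC25A29, SLC25A31, SLC25A34, SLC25A35, SLC25A38, SLC25A39, SLC25A41, SLC25A45, SLC25A47, SLC25A48, SLC25A52 and UCP2. Among them, SLC25A12, SLC25A26 and SLC25A35 were crossed by sites on the opposite strand, the strand of HAT1, LRIG1 and RANGRF respectively. Of the 11 sites across SLC25A12, which reached 192 deletion tags, 10 lay within HAT1, and none was counted for the carrier. The representative 3′UTR, that of the MANE Select or canonical transcript, had a median of 2262.5 nt in the 22 members with a 3′UTR site and of 787 nt in the other 29. Over all protein-coding genes, the medians were 1680 nt with and 783 nt without a 3′UTR site.

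The members differed widely in their number of deletion tags at the strongest site. SLC25A24 had the most, 535, followed by MTCH2 with 453, SLC25A3 with 412 and SLC25A5 with 375. MTCH1 (240), SLC25A6 (237) and SLC25A30 (233) formed a next group of near-equal values. SLC25A32 (143), SLC25A13 (136), SLC25A37 (118), SLC25A43 (112) and SLC25A46 (107) were also above 100, the median over the 24 members. The corresponding median over the other protein-coding genes with a site was 70. At the lower end were SLC25A53 with 23 deletion tags, SLC25A51 with 18 and SLC25A11 with 16.

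**Figure D1:**
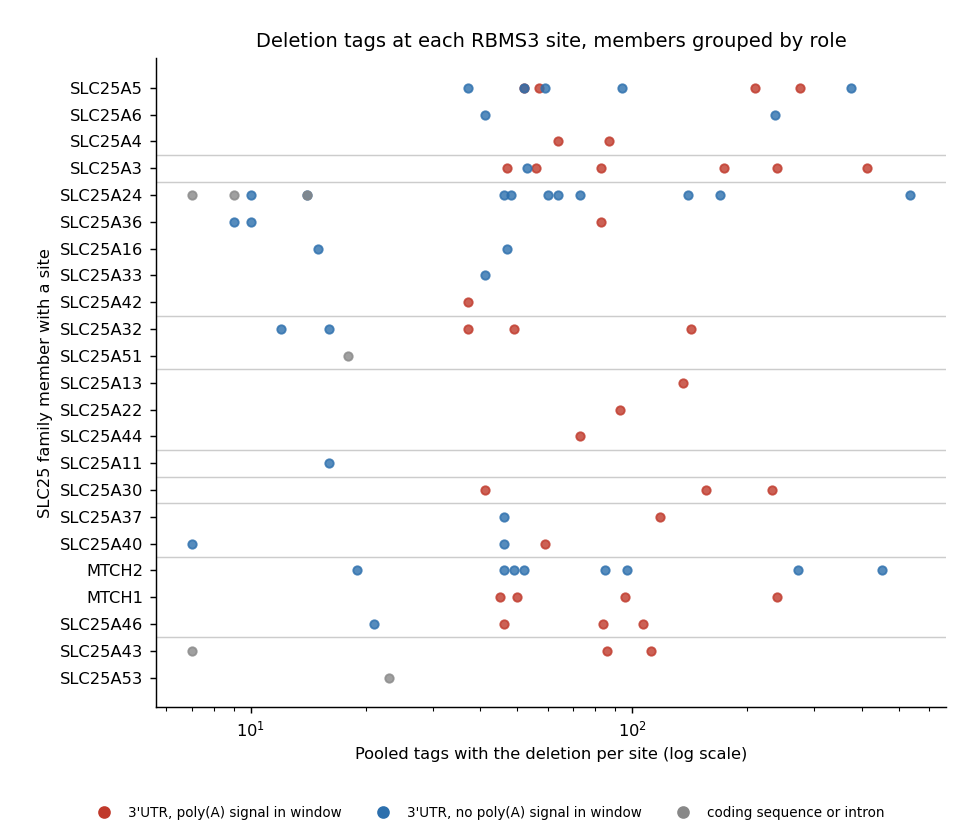
Deletion tags (x axis, log scale) at each RBMS3 site of 23 members with a site (y axis), with grey lines between groups of members of the same role and colours for the kind of site. Each point is 1 site of the pooled list, from 7 to 535 deletion tags, and the members with the most deletion tags were SLC25A24, MTCH2, SLC25A3 and SLC25A5.

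The sites fell into a group with low and a group with high deletion percentages. At 61 sites fewer than 30% of the tags carried the deletion, with a median of 7272 covering tags and a median deletion percentage of 1.40%. All 61 were in 3′UTRs, as were 18431 of the 18863 such sites in the other protein-coding genes. The other 18 member sites (22.8%, compared with 24.5% in the other protein-coding genes) were covered by 7 to 62 tags, with a median of 15. At 11 of these 18 sites every tag carried the deletion. No member site lay between 9.33% and 51.7%. SLC25A11, SLC25A33, SLC25A51 and SLC25A53 had sites of the high group only, so their calls rest on at most 62 tags. Wilson 95% intervals are given for deletion percentages, and they cover counting error only.

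**Figure D2:**
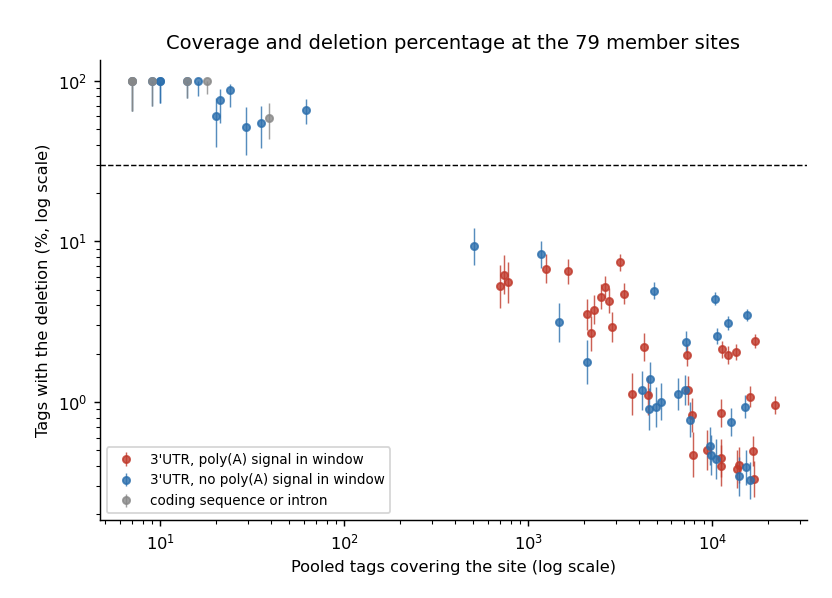
Covering tags (x axis, log scale) and deletion percentage (y axis, log scale) at the 79 member sites, with 95% Wilson intervals as bars and a dashed line at 30%. The 61 sites below the line were covered by 504 to 21891 tags and the 18 sites above it by 7 to 62 tags.

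The ADP/ATP carriers exchange cytosolic ADP for ATP made in the matrix, and 3 of the 4 had sites in their 3′UTRs. SLC25A31, the isoform known from germ cells, had none. SLC25A5, the isoform associated with proliferating cells, carried 9 sites in a single cluster that spanned 73 nt of a 3′UTR of 341 nt. Sites on a strand that were at most 50 nt apart were joined into a cluster.

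In 5′ to 3′ order, the SLC25A5 sites had 37 of 2087, 59 of 7611, 375 of 12144, 94 of 12589, 52 of 16000, 210 of 21891, 57 of 14002, 52 of 13607 and 276 of 13424 tags with the deletion. The deletion percentage went up and down along the cluster. The highest value, 3.09% (95% interval 2.79 to 3.41), was in a run of 6 T, without a poly(A) signal in the window. The next highest, 2.06% (1.83 to 2.31), was 3 nt after the start of an AATAAA. Coverage did not follow the same course, since the most heavily covered site had a deletion percentage of 0.959%. All 9 sites lay 94 to 167 nt before the annotated end.

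SLC25A6, which like SLC25A5 is widely expressed, had 2 sites that were 4 nt apart. The upstream site had 237 deletions in 4804 tags (4.93%, 4.36 to 5.58), and the downstream site had 41 in 4519 (0.907%, 0.670 to 1.23). These intervals did not overlap, although coverage at the sites was nearly equal. The sites were 133 and 129 nt from the annotated end, and neither had a poly(A) signal in its window. SLC25A6 lies in the pseudoautosomal region, and its chromosome Y copy held no site.

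SLC25A4, the main isoform of heart and skeletal muscle, had sites with 64 deletions in 7709 tags (0.830%, 0.651 to 1.06) and 87 in 7373 tags (1.18%, 0.958 to 1.45), which were 9 nt apart and had overlapping intervals. The first deletion lay within an AATAAA and the second after the same hexamer, 3128 and 3119 nt before the annotated end of the coding transcript. A transcript annotated as a target of nonsense-mediated decay ended 13 and 22 nt upstream of them. Among the 3 carriers, the sites nearest to an annotated end downstream were those of SLC25A5 at 94, 95 and 98 nt. They count as within 100 nt of an end in the comparison over all members. All sites of SLC25A4 and 4 of SLC25A5 had a poly(A) signal in the window.

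**Figure D3:**
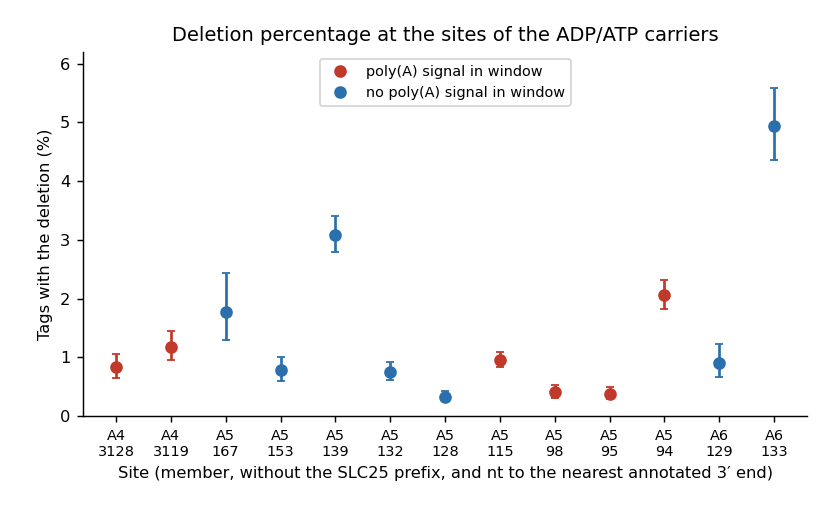
Percentage of tags with the deletion (y axis) at the 13 sites of the ADP/ATP carriers, in the order of the genes and named by their distance to the nearest annotated 3′ end downstream (x axis). Bars are 95% Wilson intervals, red marks sites with a poly(A) signal within 25 nt, and the highest values were 4.93% in SLC25A6 and 3.09% in SLC25A5.

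SLC25A3, the mitochondrial phosphate carrier, had 7 sites in a cluster of 64 nt. From 5′ to 3′ they had 53 of 5261, 47 of 9354, 240 of 12222, 56 of 16808, 83 of 16718, 412 of 17157 and 174 of 16094 tags with the deletion. The strongest was at 2.40% (2.18 to 2.64) and fell in the run of A that begins AATAAA. The next, at 1.96% (1.73 to 2.23), was in a run of 3 T upstream of the same hexamer, and these intervals overlapped. The remaining 5 sites were at 0.333 to 1.08%. Every site lay 4 to 30 nt before an annotated end, but 4665 to 4729 nt before the end of the representative transcript, so the sites marked the proximal ends of a long 3′UTR.

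Among the carriers of nucleotides and coenzymes, 6 of 10 had sites. SLC25A24, a calcium-regulated carrier of ATP-Mg and phosphate, had 13 sites in 6 clusters, more than any other member. Of these, 8 formed a cluster of 53 nt in the 3′UTR, with 64 of 4577, 73 of 6530, 170 of 7159, 46 of 9890, 48 of 13941, 535 of 15349, 60 of 15299 and 140 of 15015 tags from 5′ to 3′. The peak value was 3.49% (3.21 to 3.79), a secondary maximum was 2.37% (2.05 to 2.75), and each lay in a run of 3 T. The windows of these sites held no poly(A) signal. The hexamer AATATA, which is among 10 further single-base variants of AATAAA that were searched, was within 25 nt of 6 of the 8. The 8 sites were 6 to 45 nt before annotated ends and 786 to 839 nt before the representative end.

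The other 5 sites of SLC25A24 were of a different kind, since all of their tags, 7 to 14 per site, carried the deletion. They comprised 10 and 14 tags in annotated 3′UTRs, 9 tags in coding sequence, and 14 and 7 tags in introns. With all transcripts used, the site with 9 tags was the only member site placed in coding sequence. It lay in an intron of the representative transcript. Conversely, some sites placed in 3′UTRs of other transcripts lay in coding sequence of the representative transcript. These were the 3′UTR site of SLC25A24 with 14 tags and sites of SLC25A32 (12 of 20 tags) and SLC25A36 (9 of 9 tags). SLC25A23, SLC25A25 and SLC25A41, the other ATP-Mg/phosphate carriers, had no site.

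The paralogous pyrimidine nucleotide carriers SLC25A36 and SLC25A33 both had sites. SLC25A36 had 83 deletions in 2833 tags (2.93%, 2.37 to 3.62) beside an ATTAAA, 22 nt before an annotated end. Its other sites had 9 of 9 and 10 of 10 tags with the deletion. SLC25A33 had only a site with 41 of 62 tags, 2497 nt before its end.

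The coenzyme A carrier SLC25A42 had 37 deletions in 703 tags (5.26%, 3.84 to 7.17) at an AATAAA, 166 nt before the nearest annotated end. SLC25A16 had 47 in 504 tags (9.33%, 7.09 to 12.2), the highest value among the 61 sites of the low group, and 15 in 29 tags, 4362 and 4426 nt before an annotated end. The peroxisomal member SLC25A17 had no site.

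SLC25A32, which carries folate or FAD, had 5 sites in 4 clusters. The strongest had 143 deletions in 7272 tags (1.97%, 1.67 to 2.31) and lay 16 nt before the end. The others had 37 of 7856, 49 of 4451, 16 of 16 and 12 of 20 tags, and these 4 also overlapped another gene annotated on the strand, so their gene is uncertain. The intronic site of the NAD carrier SLC25A51, with 18 of 18 tags, likewise lay in an intron of another gene. SLC25A52, its close paralogue, had none.

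Of the 11 carriers of amino acids, carnitine or S-adenosylmethionine, 3 had a site, and each had a single site at a poly(A) signal next to a transcript end. SLC25A13, the aspartate/glutamate carrier citrin, had 136 deletions in 2614 tags (5.20%, 4.42 to 6.12), 8 nt before an end. The glutamate carrier SLC25A22 had 93 in 4231 tags (2.20%, 1.80 to 2.69), 17 nt before the end, and the branched-chain amino acid carrier SLC25A44 had 73 in 2074 tags (3.52%, 2.81 to 4.40), 16 nt before an end. SLC25A12 and SLC25A18, the paralogues of SLC25A13 and SLC25A22, had no site on their strand. Neither did the ornithine carriers SLC25A2 and SLC25A15, the basic amino acid carrier SLC25A29, the glycine carrier SLC25A38, the carnitine carrier SLC25A20 or the S-adenosylmethionine carrier SLC25A26.

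Of the 4 di- and tricarboxylate carriers, the oxoglutarate/malate carrier SLC25A11 had a site with 16 of 21 tags. The citrate carrier SLC25A1, the dicarboxylate carrier SLC25A10 and the oxodicarboxylate carrier SLC25A21 had none.

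In the uncoupling protein family, SLC25A30 was the only one of 4 with sites, and UCP2, SLC25A14 and SLC25A27 had none. The SLC25A30 sites had 233 deletions in 3139 tags, 156 in 3295 and 41 in 3641, from 5′ to 3′. The first, at 7.42% (6.56 to 8.39), exceeded the second, at 4.73% (4.06 to 5.51), and the third, at 1.13% (0.831 to 1.52), without overlap of the intervals. The first 2 lay just before an AATAAA, 13 to 17 nt from an annotated end, and the third lay by another AATAAA downstream.

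For iron and glutathione, the pairs of paralogues were divided. The mitochondrial iron importer SLC25A37 (mitoferrin-1) had sites with 118 deletions in 2759 tags (4.28%, 3.58 to 5.10) and 46 in 4937 tags (0.932%, 0.699 to 1.24), and SLC25A28 (mitoferrin-2) had none. The stronger SLC25A37 site held an AATAAA 2925 nt before the annotated end. SLC25A40, a glutathione carrier, had sites with 59 deletions in 2192 tags (2.69%) and 46 in 1467 (3.14%), whose intervals overlapped, and a site with 7 of 7 tags. Its paralogue SLC25A39 had none.

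All 3 outer membrane members had sites, 16 in total. MTCH2, an insertase for tail-anchored proteins, had 8 sites in 3 clusters. The proximal cluster of 6 sites had 49 of 4132, 85 of 7140, 272 of 10595, 46 of 10470, 453 of 10280 and 52 of 9729 tags with the deletion, and it lay 1 to 42 nt before an annotated end of a short 3′UTR. The maximum there was 4.41% (4.03 to 4.82). The distal site, 24 nt before the representative end, had 97 deletions in 1169 tags (8.30%, 6.85 to 10.0). The remaining site had 19 of 35 tags with the deletion. The proximal position thus had more tags and the distal position a higher deletion percentage, with intervals that did not overlap. None of the 8 windows held AATAAA or ATTAAA, and the distal window held the variant AGTAAA.

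MTCH1, the paralogue of MTCH2, had 4 sites within 12 nt, all around an AATAAA at its end. They had 96 of 11194, 240 of 11258, 45 of 11193 and 50 of 11166 tags with the deletion, so that coverage was flat while the deletion percentage rose to 2.13% (1.88 to 2.42) in the run of A within the hexamer and was 0.402 to 0.858% at the others. SLC25A46, which acts in mitochondrial shape and lipid homeostasis, had 46 deletions in 740 tags (6.22%), 84 in 1242 (6.76%) and 107 in 1647 (6.50%), with overlapping intervals. The first 2 flanked an ATTAAA 11 to 37 nt before an annotated end, and the third was at an AATAAA 2102 nt before the end. A further SLC25A46 site had 21 of 24 tags.

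The 7 members without an assured role included SLC25A43, with 112 deletions in 2469 tags (4.54%, 3.78 to 5.43) and 86 in 2284 (3.77%, 3.06 to 4.63) on either side of an ATTAAA and 7 of 7 tags in an intron. SLC25A53 had an intronic site with 23 of 39 tags, and SLC25A34, SLC25A35, SLC25A45, SLC25A47 and SLC25A48 had no site.

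**Figure D4:**
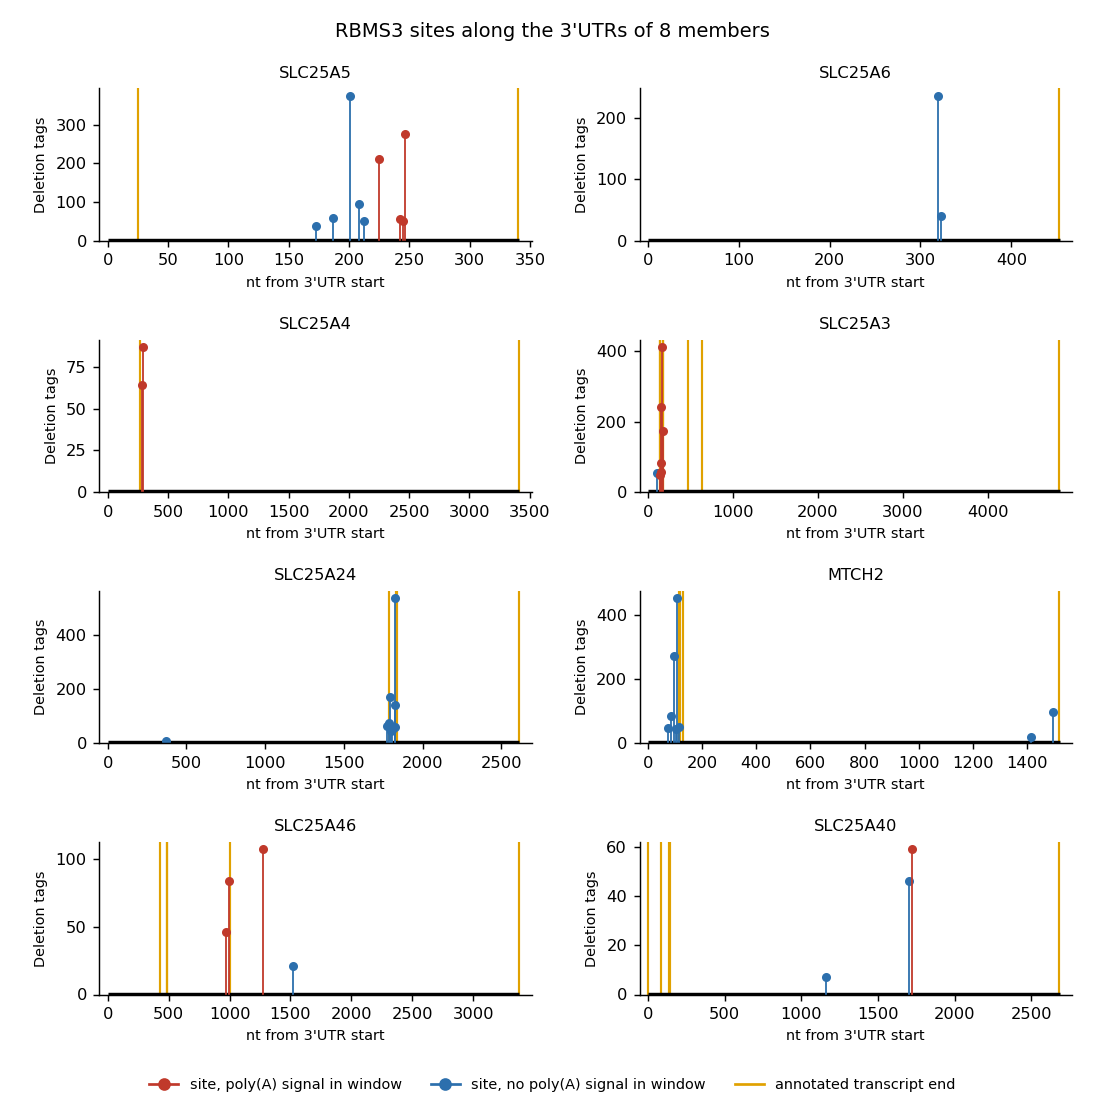
Deletion tags (y axis) at sites along the representative 3′UTR (x axis, nt from its start) of 8 members, with orange lines at annotated transcript ends and red for sites with a poly(A) signal within 25 nt. The sites of SLC25A3 and most of those of SLC25A24 and MTCH2 lay by ends upstream of the representative end, whereas those of SLC25A5 and SLC25A6 lay 94 to 167 nt before theirs.

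Within clusters, the highest and lowest of the listed sites often differed in deletion percentage by more than the counting error of each. Of 12 clusters with several sites, 8 had extremes whose intervals did not overlap. The extremes were picked from up to 9 sites spanning up to 73 nt, which favours a lack of overlap in clusters with many sites. The 8 clusters were in SLC25A3, SLC25A5, SLC25A6, SLC25A24, SLC25A30, SLC25A32, MTCH1 and MTCH2. Their ratios of the highest to the lowest value ranged from 4.18 in SLC25A32 to 10.1 in SLC25A24. The intervals of the extremes overlapped in SLC25A4, SLC25A40, SLC25A43 and SLC25A46. Only listed sites enter these ratios, so bases with fewer deletions are not represented. A site in a run of equal bases stands for the whole run, so its percentage is not that of a single base.

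The positions of the sites were then compared over all members. Of the 79 sites, 73 (92.4%, 95% Wilson interval 84.4 to 96.5) were in 3′UTRs, 5 in introns and 1 in coding sequence. In the other protein-coding genes, 84.7% of sites were in 3′UTRs. For the members, the share was 88.6% (70 of 79) on representative transcripts alone and 85.7% (36 of 42) with 1 site per cluster. Sites of a gene are not independent, so intervals over sites are too narrow. Within 100 nt of an annotated end lay 44 of the 73 (60.3%, 48.8 to 70.7), compared with 69.1% in the other genes, or 65.6% when only ends of transcripts with a 3′UTR were used, which left the members' count at 44. Counted once per gene, at the 3′UTR site with the most deletion tags, 12 of 22 members (54.5%, 34.7 to 73.1) lay this close to an end, and in other genes the share was 75.0%.

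A poly(A) signal was present within 25 nt of 35 of the 73 sites (47.9%, 36.9 to 59.2), compared with 65.5% in the other genes and with 7.17% of all 51-nt windows of 3′UTRs. Few genes held most of the sites without a signal. SLC25A24, MTCH2 and SLC25A5 held 23 of the 38 sites without a signal, and in the other 19 members 31 of 46 sites had a signal. These genes were singled out for such sites, which by itself raises the share in the rest. With 1 site per cluster, a signal was present in 47.2% of member clusters, compared with 60.6% in other genes. Per gene, the top site had a signal in 15 of 22 members (68.2%, 47.3 to 83.6), compared with 74.2% of other genes. Signals were also present far from ends, at 8 of the 29 sites more than 100 nt from an annotated end (27.6%, compared with 47.9% in other genes), in SLC25A4, SLC25A5, SLC25A32, SLC25A37, SLC25A40, SLC25A42 and SLC25A46.

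The RNA in these libraries was captured and primed by oligo(dT) after a poly(A) tail had been added. RNA that already ends in a tail can be captured in the same way, and the part of this step in the position of the sites was not tested.

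The AUA motif of the study, 7 nt long, consists of a base other than C, a weak base, ATA, a weak base and A, where a weak base is A or T. It was searched on the transcript strand and can itself contain AATAAA. It was present within 25 nt of 36 of the 73 sites (49.3%, 38.2 to 60.5), compared with 51.7% in other genes and 8.73% of 3′UTR windows. A match that did not contain AATAAA was present at 13 sites (17.8%, 10.7 to 28.1), compared with 15.5% in other genes and 5.47% of windows. These 13 sites included 6 of the SLC25A24 cluster, all 3 of SLC25A30 and the site of MTCH2 with 19 deletion tags. The windows of the SLC25A6 sites and of the stronger MTCH2 sites, although AT-rich, held no match to the motif, which says only that these letters were not in that window.

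The deleted base was T at 47 of the 73 sites (64.4%, 52.9 to 74.4) and A at 15, compared with 65.5% T in other genes. The deleted T lay in a run of exactly 3 at 25 sites (34.2%, 24.4 to 45.7), compared with 26.7%. The strongest site of SLC25A24, MTCH2, SLC25A6 and SLC25A30 was a run of 3 T preceded by A. The printed sequences hold these runs, and the one in SLC25A30 ends at base 10 of its printed sequence. Runs of this kind were at the top site of 7 of 22 members (31.8%, 16.4 to 52.7), compared with 15.9% of other genes. This feature was chosen after the sites were seen, and the difference was not tested.

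**Figure D5:**
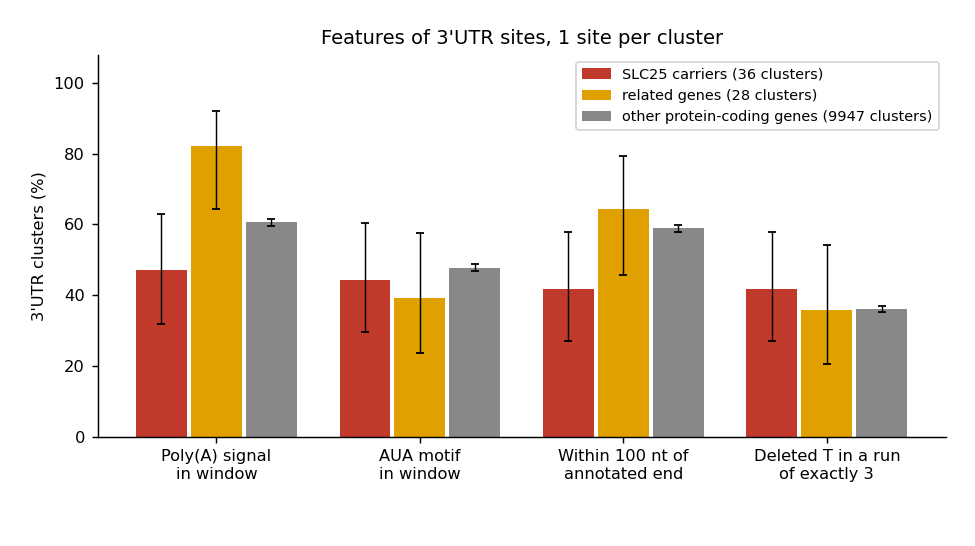
Share of 3′UTR clusters (y axis, %), each represented by its site with the most deletion tags, that had a feature (x axis) in SLC25 family members (36 clusters), a list of related genes (28) and other protein-coding genes (9947). Bars carry 95% Wilson intervals, and for SLC25 members a poly(A) signal was present in 47.2% of clusters compared with 60.6% in other genes.

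The members were set beside 31 other genes of mitochondrial membranes, a list also chosen with earlier results of these data known. The 31 genes were channels, importers, calcium uniporter subunits, sideroflexins and carriers outside the rule. Of these, 24 (77.4%) had a site, compared with 37.7% of all protein-coding genes and 47.1% of the SLC25 members. The strongest were VDAC2, an outer membrane channel, with 1052 deletions in 17139 tags (6.14%), and the import receptor TOMM20, with 1047 in 44983 tags and 17 sites. Both exceeded every SLC25 member in deletion tags. UCP1 and UCP3, SFXN2, TIMM10, TIMM10B, TIMM22 and TIMM29 had no site. The chaperones and insertase subunits TIMM9, TIMM10, TIMM10B, TIMM22 and TIMM29, which insert SLC25 proteins into the inner membrane, thus had a single site, that of TIMM9, which was intronic with 19 of 19 tags. AGK, a further subunit of that insertase, had 3 sites in its 3′UTR, the strongest with 62 deletions in 1779 tags.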

How the data were processed

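CLIP-seq tags of both replicates had been processed by the authors with the CLIP Tool Kit (version not given in the sources used here): identifiers were appended to reads, tags were aligned to hg38 and made unique, both replicates were pooled, and deletion sites were called at a false discovery rate under 10% and a fold filter of 10 whose definition is not given in the sources used here. The deposited file holds counts of covering and deletion tags per site, which were not normalized. Library totals were not analysed here.

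From these counts, the centre of each 21-nt interval was taken as the deletion and placed on all transcripts of GENCODE release 44, in the order 3′UTR, 5′UTR, coding sequence, noncoding exon, intron. Chromosome Y copies of pseudoautosomal genes were dropped. Windows were 25 nt on each side. Shares and deletion percentages have 95% Wilson intervals, and no hypothesis test was made. Members are named, except that 1 is not reported here by name, although the totals include it. All sites are given for the ADP/ATP carriers, the 10 members with the most deletion tags, the 5 with the most clusters and those with coding sites. Members and lists were chosen with earlier results of these data known. Functions were tested on simulated data. Python 3.11.15, pandas 2.3.3, scipy 1.17.1 and pysam 0.24.0 were used.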

Additional observations from a re-analysis of the deposited data

How the results depend on the processing

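The number of members with a site ranged from 17 to 27 and that of members with a 3′UTR site from 17 to 22 over the alternatives. The share of sites in 3′UTRs was 98.4% at 20 or more deletion tags and 100% at 50 or more. It was also 100% in sites with deletions in under 30% of tags (18431 of 18863 in other genes). The share within 100 nt of an end was 75.0% at 50 or more deletion tags. It was 72.1% in sites with deletions in under 30% of tags (75.9% in other genes) and 41.7% with 1 site per cluster (58.9% in other genes). With only representative transcripts it was 27.1%. Of all 73 sites, 26.0% lay within 100 nt of the representative end, compared with 48.2% in other genes. With 10 nt on each side, the poly(A) signal was present at 27.4% of sites and the AUA motif at 27.4%. The AUA motif was present at 63.0% with 50 nt and at 17.8% when matches holding AATAAA were left out. The median deletion percentage was 2.57% over all sites and 7.09% with 1 site per cluster, an alternative chosen after the data were seen, as were those on transcript ends and on the related genes. The other 28 values differed from those reported by less than the interval of the share or, for counts of genes and the median, 1.5 times. No paired analysis was possible because the replicates form 1 group and were pooled into 1 list, and for the same reason no replicate could be left out. Depth limits mainly the 18 sites with 7 to 62 tags.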
